A study of Mus musculus with 20 samples.

Results

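The vascular endothelial growth factor (VEGF) and angiopoietin system was followed through 10 genes in mouse liver RNA: the ligands Vegfa, Vegfb, Vegfc, Angpt1 and Angpt2, the receptor tyrosine kinases Flt1, Flt4 and Tek, and the co-receptors Nrp1 and Nrp2. The genes were taken by symbol, with earlier results of these data known. Each symbol matched 1 row of the 38924 genes in the deposited table, and all 10 were among the 14524 genes tested. Angpt1 and Angpt2 entered the test only through livers on the fibrosis-inducing diet: none of the 10 control diet libraries exceeded 0.5 FPKM (fragments per kilobase of gene, scaled to the fragments assigned to genes in that library) for either gene.

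The livers came from 20 male mice in 4 groups of 5, with 1 library per mouse. NDWT were C57BL/6J wild type (WT) mice on control chow, NDKO were TSP-1 null mice on control chow, and HFWT and HFKO were the same genotypes on CDAHFD. CDAHFD is a high fat chow that lacks choline, limits methionine and supplies defined amino acids, used to induce steatohepatitis and fibrosis. Both diets were given for 12 weeks, to mice bought at 5 weeks of age and acclimated for 1 week. TSP-1 null mice (null mice below) carry a whole-body knockout of Thbs1, which encodes thrombospondin-1, a matricellular glycoprotein known as an inhibitor of angiogenesis. Both lines were purchased from the same supplier and are not described as littermates.

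VEGF-A binds VEGFR1 (Flt1) and VEGFR2 (Kdr) on endothelial cells and is the main growth signal of blood vessels, whereas VEGF-B binds VEGFR1 alone. VEGF-C is processed from a precursor and acts mainly through VEGFR3 (Flt4), best known from lymphatic endothelium and also present on the sinusoidal endothelium of the liver. Neuropilins bind VEGFs together with these receptors and also bind class 3 semaphorins with plexins. Angiopoietin-1 activates TIE2 (Tek) and stabilizes vessels, and angiopoietin-2 modulates the same receptor, often as an antagonist.

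Libraries held 15641545 to 23276322 fragments assigned to genes. A gene was called where limma gave a Benjamini-Hochberg FDR under 0.05 over all tested genes and an absolute log2 fold change (log2FC) above 0.58. Thbs1 itself was checked first. It was 0.170, 0.326, 0.268, 0.0580 and 0.165 FPKM in NDWT and 1.01, 1.5, 0.986, 1.90 and 1.13 FPKM in NDKO, so that every library labelled TSP-1 null on control diet lay above every WT library (log2FC 2.28, FDR = 1.02e-05). On CDAHFD it was 5.77, 6.10, 3.46, 3.91 and 3.86 FPKM in HFWT and 3.30, 3.32, 3.05, 3.14 and 4.40 FPKM in HFKO, and the groups overlapped (log2FC -0.39, FDR = 0.408). The Thbs1 values on control diet go against the genotype labels. Gene values cannot tell reads of a deleted part from reads of the rest of a gene, and genotype is given here as labelled. Across all tested genes the median log2FC for CDAHFD against control diet was 0.53 in WT and 0.50 in null mice on the deposited scale, and near 0 (-0.0054 and -0.011) after median of ratios scaling, which divides each library by its typical gene. Diet changes below are therefore given on both scales, and ratios of genes within a library are given beside them. A single factor per library does not alter these, apart from the 0.1 FPKM added to each gene.

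In the livers on CDAHFD the ligands moved apart. Vegfb and Vegfc rose in both genotypes on the deposited scale, while Vegfa did not pass the test in either. After median of ratios scaling the rise of Vegfc passed both thresholds in WT mice, and Vegfa fell in both genotypes. Under quantile normalization, which gives every library the same distribution, Vegfa was called in neither genotype and Vegfc in WT mice only. The 250 bases before the RefSeq transcription start (GRCm38.p6) are shown for these 3 ligands, since their values differed in response to the diet. Capitals mark the core of the hypoxia response element, the motif bound by hypoxia-inducible factors, read as ACGTG or GCGTG or their reverse complements CACGT or CACGC. Of 10 genes, 8 had an entry in the set of RefSeq promoters used here, and Angpt1 and Angpt2 had none. Vegfa had 2, of which the more upstream is printed. Vegfa lies at chr17:46032378-46032627 on the minus strand, Vegfb at chr19:6987652-6987901 on the minus strand, and Vegfc at chr8:54077282-54077531 on the plus strand.
Vegfa: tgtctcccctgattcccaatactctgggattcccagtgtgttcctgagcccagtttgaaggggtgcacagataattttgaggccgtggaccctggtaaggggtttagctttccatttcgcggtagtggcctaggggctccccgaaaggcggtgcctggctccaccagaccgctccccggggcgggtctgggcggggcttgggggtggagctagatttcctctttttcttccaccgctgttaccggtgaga
Vegfb: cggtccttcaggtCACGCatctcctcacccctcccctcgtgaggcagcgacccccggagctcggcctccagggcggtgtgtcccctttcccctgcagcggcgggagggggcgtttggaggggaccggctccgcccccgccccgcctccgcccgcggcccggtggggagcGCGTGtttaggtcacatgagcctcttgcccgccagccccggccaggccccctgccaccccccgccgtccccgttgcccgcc
Vegfc: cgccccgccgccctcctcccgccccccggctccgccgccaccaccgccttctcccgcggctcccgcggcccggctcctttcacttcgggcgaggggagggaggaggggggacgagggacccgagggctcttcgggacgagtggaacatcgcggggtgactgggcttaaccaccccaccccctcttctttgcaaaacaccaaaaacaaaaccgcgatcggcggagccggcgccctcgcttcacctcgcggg
Vegfb held 2 cores (GCGTG, starting 81 bases before the start, and its complement at 237 bases), and the windows of Vegfc and of the upstream Vegfa start held none. Among 32851 promoter windows of the same length, 38.6% held either core, 16.6% ACGTG and 28.2% GCGTG. The second Vegfa window, chr17:46025164-46025413, lies inside the gene (46016993 to 46032377) and downstream of the first start. It held 1 of each, so these 2 matches are within the transcribed gene. The windows of Flt1 and Nrp1 held 1 GCGTG and that of Nrp2 held 2, while those of Flt4 and Tek held neither. The core of ETS factor sites, GGAAG or CTTCC, was found 3 times each before Flt1 and Nrp1 and in 64.1% of all windows, and TATAAA or TTTATA was found only before Flt1 among these windows and in 12.4% of all. The windows of Vegfb and Vegfc had 76.4% and 71.6% G and C bases, against a median of 52.4% over all windows and 59.2% for Vegfa. Matches are a description of these letters and not of binding.

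Vegfa, the principal angiogenic ligand, was the most abundant of the 10 genes per length in all 4 groups. It was 43.9, 47.1, 34.9, 34.1 and 35.7 FPKM in NDWT and 45.2, 39.1, 42.9, 36.3 and 36.4 FPKM in NDKO. It was 37.0, 38.3, 27.2, 40.7 and 37.3 FPKM in HFWT and 33.8, 28.5, 34.1, 40.7 and 33.1 FPKM in HFKO. Values overlapped between diets in both genotypes, with HFWT replicate 3 and HFKO replicate 2 the lowest. The log2FC with diet was -0.12 ± 0.12 (SE) in WT (FDR = 0.377) and -0.24 ± 0.12 in null mice (FDR = 0.0781), and on the median of ratios scale it was -0.68 (FDR = 3.83e-05) and -0.77 (FDR = 9.49e-06), both past the thresholds as lower. In bulk liver RNA, fewer cells of a type and less RNA per cell cannot be told apart, here and in every value that follows.

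Vegfb, a VEGFR1 ligand linked to endothelial lipid handling, was 6.32, 8.88, 6.75, 7.15 and 5.87 FPKM in NDWT and 11.4, 11.6, 12.3, 10.4 and 9.52 FPKM in HFWT. In NDKO it was 5.62, 9.79, 6.93, 4.99 and 6.38 FPKM, and in HFKO 12.3, 8.64, 12.1, 14.3 and 11.9 FPKM. All HFWT livers were above all NDWT livers, whereas HFKO replicate 2 fell below NDKO replicate 2. Vegfb rose by a log2FC of 0.66 ± 0.16 in WT (1.58-fold, FDR = 0.000832) and 0.82 ± 0.16 in null mice (1.77-fold, FDR = 0.000102). The median of all tested genes was 0.53 and 0.50 in the same comparisons, and on the median of ratios scale the values of Vegfb were 0.11 (FDR = 0.557) and 0.29 (FDR = 0.0922), neither past the thresholds.

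Vegfc, the VEGFR3 ligand, was 2.69, 2.42, 2.12, 1.74 and 1.39 FPKM in NDWT and 5.57, 7.11, 4.12, 4.98 and 5.08 FPKM in HFWT. It was 1.65, 2.22, 2.42, 1.86 and 2.52 FPKM in NDKO and 4.82, 4.21, 4.61, 3.66 and 6.11 FPKM in HFKO. Every liver on CDAHFD was above every control liver of the same genotype. Behind these values were 52 to 118 fragments per library on control diet in WT and 157 to 252 on CDAHFD. Vegfc rose by a log2FC of 1.35 ± 0.18 in WT (2.54-fold, FDR = 1.23e-06) and 1.09 ± 0.18 in null mice (2.13-fold, FDR = 1.69e-05). On the median of ratios scale the rise was 0.80 in WT (FDR = 0.000327) and 0.576 in null mice (FDR = 0.00562), the latter just under the fold threshold of 0.58.

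**Figure D1:**
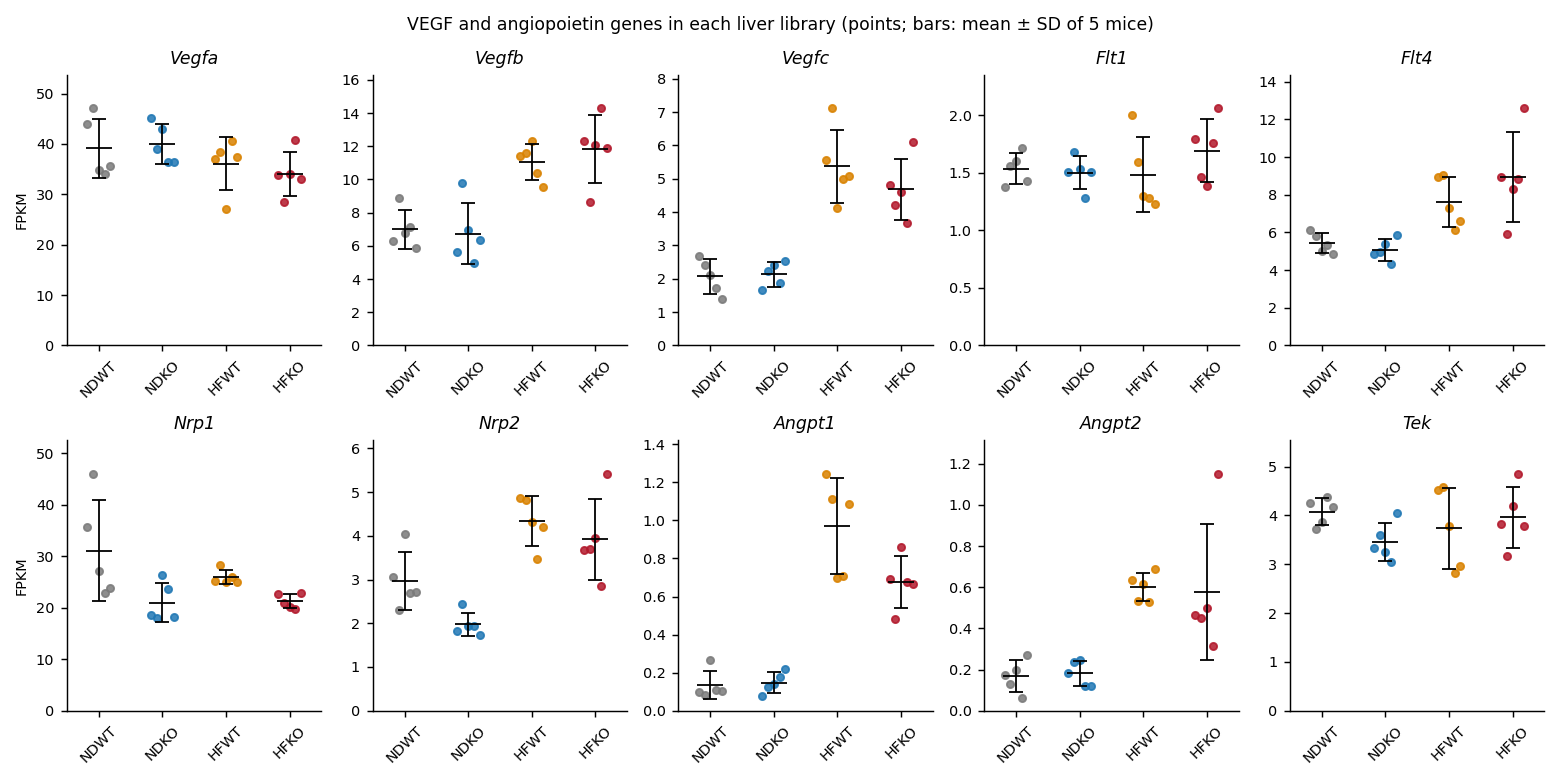
FPKM of the 10 genes (y axes, each from 0) in the 4 groups (x axes); points are single livers and bars the mean ± SD of 5 mice. Vegfc, Angpt1 and Angpt2 were higher on CDAHFD in every liver of either genotype, while Vegfa, Flt1, Nrp1 and Tek overlapped between diets; Angpt2 was not higher under quantile normalization, and Flt4 and Angpt2 were highest in HFKO replicate 5.

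Ratios within a library, taken here and below of FPKM + 0.1, gave the shift among ligands without a factor per library. There was 0.0635, 0.0535, 0.0635, 0.0537 and 0.0415 Vegfc per Vegfa in NDWT and 0.153, 0.188, 0.155, 0.125 and 0.138 in HFWT. In NDKO the ratio was 0.0386, 0.0593, 0.0585, 0.0539 and 0.0718, and in HFKO 0.145, 0.151, 0.138, 0.0921 and 0.187. The diets did not overlap in either genotype, and the log2 ratio was higher on CDAHFD by 1.46 in WT and 1.33 in null mice (exact permutation p = 0.00794 each, the smallest that 252 arrangements allow, and 0.0317 adjusted over 24 ratio tests). Without NDKO replicate 1 or NDKO replicate 4 the null difference was 1.20 and 1.32 and no longer passed (exact permutation, adjusted p = 0.0544 each). The Vegfa to Vegfb ratio ran from 4.71 to 6.85 in NDWT and from 2.20 to 3.89 in HFWT, and from 3.96 to 7.92 in NDKO and from 2.73 to 3.27 in HFKO. It was lower on CDAHFD without overlap (log2 difference -0.78 in WT and -1.06 in null mice; exact permutation, adjusted p = 0.0317 each). Without HFKO replicate 1 or HFKO replicate 5 the null difference was -1.04 and -1.05 (exact permutation, adjusted p = 0.0544 each). The Vegfa to Flt1 ratio, between 15.4 and 29.7 across all livers, overlapped between diets (log2 difference -0.05 in WT and -0.39 in null mice; exact permutation, adjusted p = 0.898 and 0.0952).

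**Figure D2:**
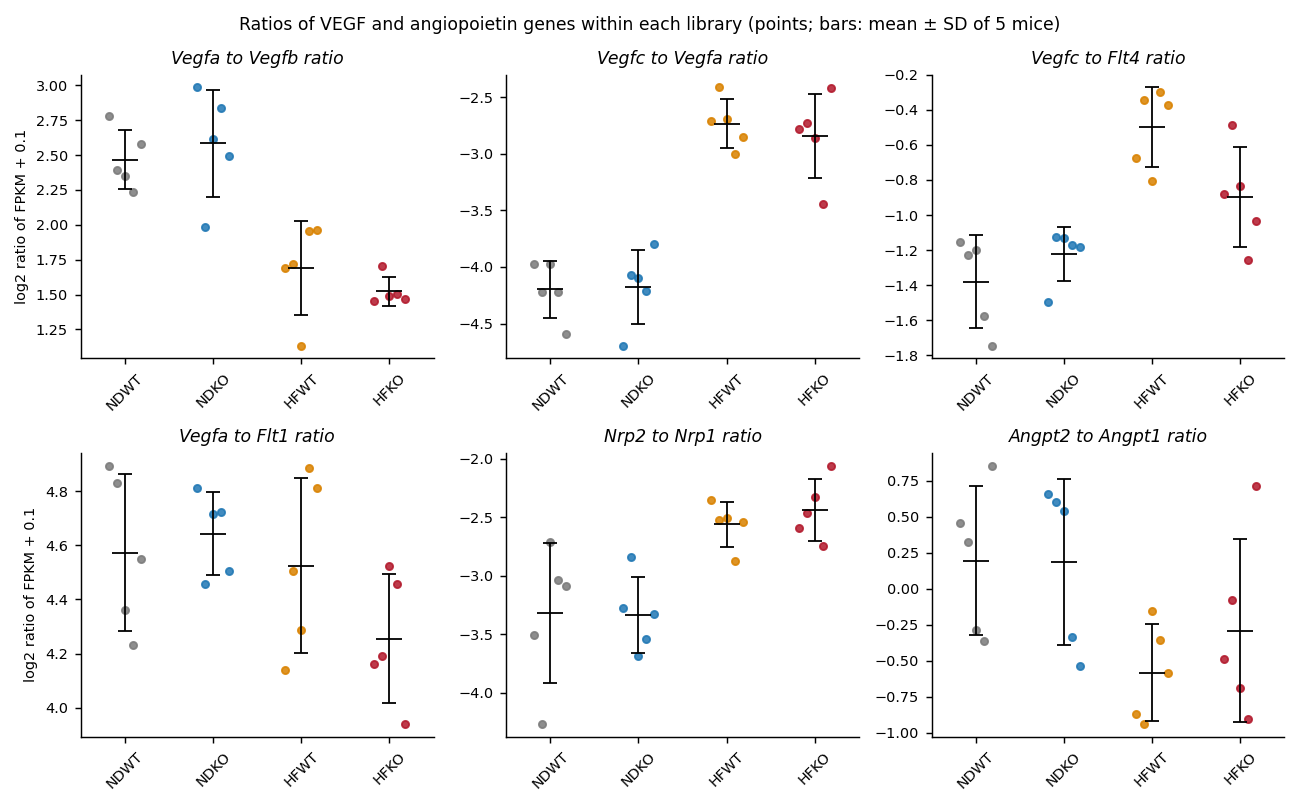
Log2 ratio of the FPKM + 0.1 of gene pairs (y axes) in the 4 groups (x axes); points are single livers and bars the mean ± SD of 5 mice. The Vegfc to Vegfa and Vegfa to Vegfb ratios separated the diets in both genotypes, the Vegfc to Flt4 ratio in WT and the Nrp2 to Nrp1 ratio in null mice.

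Of the receptors, Flt4 was called higher on CDAHFD in null mice on the deposited scale alone, and Flt1 and Tek did not pass the test on that scale. Flt1, the VEGFR1 gene that also yields a soluble decoy receptor, was 1.38, 1.56, 1.60, 1.72 and 1.43 FPKM in NDWT and 2.01, 1.59, 1.30, 1.28 and 1.23 FPKM in HFWT. It ranged from 1.28 to 1.68 FPKM in NDKO and from 1.39 to 2.06 FPKM in HFKO. HFWT replicate 1 was the highest WT liver and 3 of the HFWT livers lay below every NDWT liver, and the groups overlapped. Its log2FC was -0.07 ± 0.13 in WT (FDR = 0.649) and 0.15 ± 0.13 in null mice (FDR = 0.302), and on the median of ratios scale it was -0.59 (FDR = 0.000167, past the thresholds as lower) and -0.35 (FDR = 0.0126, under the fold threshold), with the sign turned in null mice. Quantile normalization put it past the thresholds as lower in both genotypes (log2FC -0.999 and -0.68), against the sign on the deposited scale in null mice.

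Flt4, the VEGFR3 gene, was 6.11, 5.81, 5.00, 5.36 and 4.88 FPKM in NDWT and 8.95, 9.06, 7.28, 6.15 and 6.59 FPKM in HFWT. It was 4.84, 4.97, 5.41, 4.32 and 5.86 FPKM in NDKO and 8.95, 5.94, 8.29, 8.86 and 12.6 FPKM in HFKO. The diets did not overlap in either genotype, though HFWT replicate 4 and HFKO replicate 2 lay just above the highest control liver. The log2FC was 0.47 ± 0.15 in WT (FDR = 0.00922, under the fold threshold) and 0.77 ± 0.15 in null mice (1.70-fold, FDR = 0.000149), where it rose. Without HFKO replicate 5 the latter was 0.64 (FDR = 0.000417). On the median of ratios scale Flt4 was -0.09 in WT and 0.24 in null mice (FDR = 0.588 and 0.121), so that the sign turned in WT and the call was lost in null mice. Set against its receptor gene, Vegfc was higher on CDAHFD in WT, where the Vegfc to Flt4 ratio was 0.299 to 0.450 in NDWT and 0.571 to 0.813 in HFWT, a log2 difference of 0.88 (exact permutation, adjusted p = 0.0317). In null mice the ratio was 0.354 to 0.458 on control diet and 0.419 to 0.714 on CDAHFD, a difference of 0.33 (exact permutation, adjusted p = 0.104), and without HFKO replicate 4 it was 0.41 (adjusted p = 0.0381). The direct comparison of the genotypes on CDAHFD gave -0.40 for this ratio (exact permutation p = 0.0397, adjusted 0.0952), and -0.50 without HFKO replicate 2 (adjusted p = 0.0476). Each of these 2 differences passed in 1 of 13 alternatives. At the weakest the diet difference in null mice was 0.17 and the genotype difference -0.31 (highest adjusted p of the exact tests 0.41 and 0.208).

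Nrp1, the more abundant neuropilin, was 35.7, 46.0, 27.1, 22.8 and 23.8 FPKM in NDWT and 25.3, 28.3, 25.0, 26.1 and 24.9 FPKM in HFWT. It was 18.6, 18.0, 26.3, 23.6 and 18.3 FPKM in NDKO and 22.7, 20.8, 20.2, 19.8 and 22.9 FPKM in HFKO. NDWT replicates 1 and 2 were the highest of all, and the diets overlapped in both genotypes. The log2FC with diet was -0.21 ± 0.15 in WT (FDR = 0.216) and 0.04 ± 0.15 in null mice (FDR = 0.828), and on the median of ratios scale -0.77 (FDR = 0.000152, past the thresholds as lower) and -0.49 (FDR = 0.00719, under the fold threshold), with the sign turned in null mice.

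Nrp2, the neuropilin known from lymphatic and venous endothelium, was 3.05, 2.30, 4.04, 2.70 and 2.71 FPKM in NDWT and 4.86, 4.83, 4.32, 3.46 and 4.21 FPKM in HFWT. It was 1.82, 2.43, 1.95, 1.94 and 1.73 FPKM in NDKO and 3.67, 3.71, 3.94, 2.86 and 5.42 FPKM in HFKO. NDWT replicate 3 reached into the HFWT range, while all HFKO livers were above all NDKO livers. The log2FC was 0.55 ± 0.15 in WT (FDR = 0.00345, under the fold threshold) and 0.93 ± 0.15 in null mice (1.91-fold, FDR = 2.28e-05), where it rose, whereas on the median of ratios scale it was 0.00 (FDR = 0.985) and 0.42 (FDR = 0.0169), neither past the thresholds. Without NDWT replicate 3 the log2FC in WT was 0.67 (FDR = 0.000551) and without HFWT replicate 4 it was 0.63 (FDR = 0.0018), both past the thresholds. The Nrp2 to Nrp1 ratio was 0.103, 0.140, 0.0775, 0.0860 and 0.0998 in NDKO and 0.166, 0.182, 0.199, 0.149 and 0.240 in HFKO, higher by a log2 ratio of 0.90 without overlap (exact permutation, adjusted p = 0.0317). In WT it was 0.0880, 0.0520, 0.152, 0.122 and 0.118 on control diet and 0.195, 0.173, 0.176, 0.136 and 0.172 on CDAHFD, a difference of 0.76 with overlap (exact permutation, adjusted p = 0.0544). Without NDWT replicate 3 the WT difference was 0.91 (adjusted p = 0.0272). Without HFKO replicate 1 or HFKO replicate 5 the TSP-1 null difference was 0.93 and 0.80 (exact permutation, adjusted p = 0.0544 each).

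Both angiopoietins were near the detection limit on control diet and higher on CDAHFD in both genotypes. Since they exceeded the filter through livers on CDAHFD alone, their diet values are given as a description, with the FDR of the fit that filtered no gene. Angpt1, the agonist of TIE2, was 0.101, 0.0840, 0.264, 0.110 and 0.106 FPKM in NDWT and 1.25, 1.11, 0.695, 0.707 and 1.09 FPKM in HFWT. In NDKO it was 0.0800, 0.124, 0.138, 0.176 and 0.221 FPKM and in HFKO 0.692, 0.481, 0.862, 0.678 and 0.666 FPKM. The diets did not overlap, although NDWT replicate 3 stood above the other NDWT livers. Angpt1 had 6 to 20 fragments per library in NDWT and 60 to 95 in HFWT, and 7 to 19 in NDKO and 32 to 66 in HFKO. The log2FC was 2.21 in WT (FDR = 9.61e-08 without a filter) and 1.66 in null mice (FDR = 4.13e-06 without a filter), and 1.79 and 1.27 on the median of ratios scale. With the pseudocount of 0.1 these fold changes understate the change of a gene this low. Under quantile normalization the log2FC was 0.87 in WT and 0.38 in null mice, the latter not past the thresholds.

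Angpt2, the context-dependent antagonist of TIE2, was 0.175, 0.130, 0.198, 0.0630 and 0.272 FPKM in NDWT and 0.635, 0.532, 0.615, 0.530 and 0.690 FPKM in HFWT. It was 0.184, 0.239, 0.246, 0.119 and 0.121 FPKM in NDKO and 0.466, 0.450, 0.497, 0.315 and 1.15 FPKM in HFKO. HFKO replicate 5 stood far above the other 4 livers of its group, and the diets did not overlap. With 4 to 20 fragments per library on control diet and 23 to 81 on CDAHFD, Angpt2 had a log2FC of 1.44 in WT (FDR = 0.000125 without a filter) and 1.18 in null mice (FDR = 0.000891 without a filter), and of 1.02 and 0.79 on the median of ratios scale, while under quantile normalization it was -0.038 and -0.15. Without HFKO replicate 5 the log2FC in null mice was 0.93. The Angpt2 to Angpt1 ratio of FPKM + 0.1 overlapped between diets in both genotypes. For genes this low the added 0.1 pulls the ratio towards 1. The ratio was 0.776 to 1.81 in NDWT and 0.522 to 0.899 in HFWT (log2 difference -0.78; exact permutation p = 0.0397, adjusted 0.0952), and 0.688 to 1.58 in NDKO and 0.533 to 1.63 in HFKO (-0.47; adjusted p = 0.449). Over the alternatives the log2 difference ran from -0.94 to -0.33 in WT and from -0.72 to -0.15 in null mice.

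Tek, the receptor of both angiopoietins, was 4.25, 3.71, 3.86, 4.38 and 4.17 FPKM in NDWT and 4.52, 4.58, 3.79, 2.82 and 2.97 FPKM in HFWT. It was 3.34, 3.60, 3.25, 3.04 and 4.05 FPKM in NDKO and 3.83, 3.16, 4.19, 4.85 and 3.77 FPKM in HFKO. HFWT livers fell on both sides of the NDWT range, and the diets overlapped in both genotypes. The log2FC was -0.15 ± 0.13 in WT (FDR = 0.321) and 0.19 ± 0.13 in null mice (FDR = 0.217), whereas on the median of ratios scale it was -0.69 (FDR = 4.63e-05, past the thresholds as lower) and -0.34 (FDR = 0.0204, under the fold threshold), with the sign turned in null mice.

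Across the 8 genes that exceeded the filter on both diets, 2 were called higher with CDAHFD in WT (Vegfb and Vegfc) and 4 in null mice (those and Flt4 and Nrp2). Over all tested genes 48.8% were called in WT, 44.1% as higher, and 45.9% in null mice, 41.9% as higher, so the shares among the 8 genes were near or below the background. Groups did not overlap between diets for 3 of the 8 genes in WT and 3 in null mice, against 56.2% and 57.8% of all tested genes. On the median of ratios scale 1 of the 8 genes was called higher and 4 lower in WT, and 0 higher and 1 lower in null mice, where 22.7% and 15.4% of all tested genes were called higher and lower in WT and 22.2% and 13.6% in null mice.

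**Figure D3:**
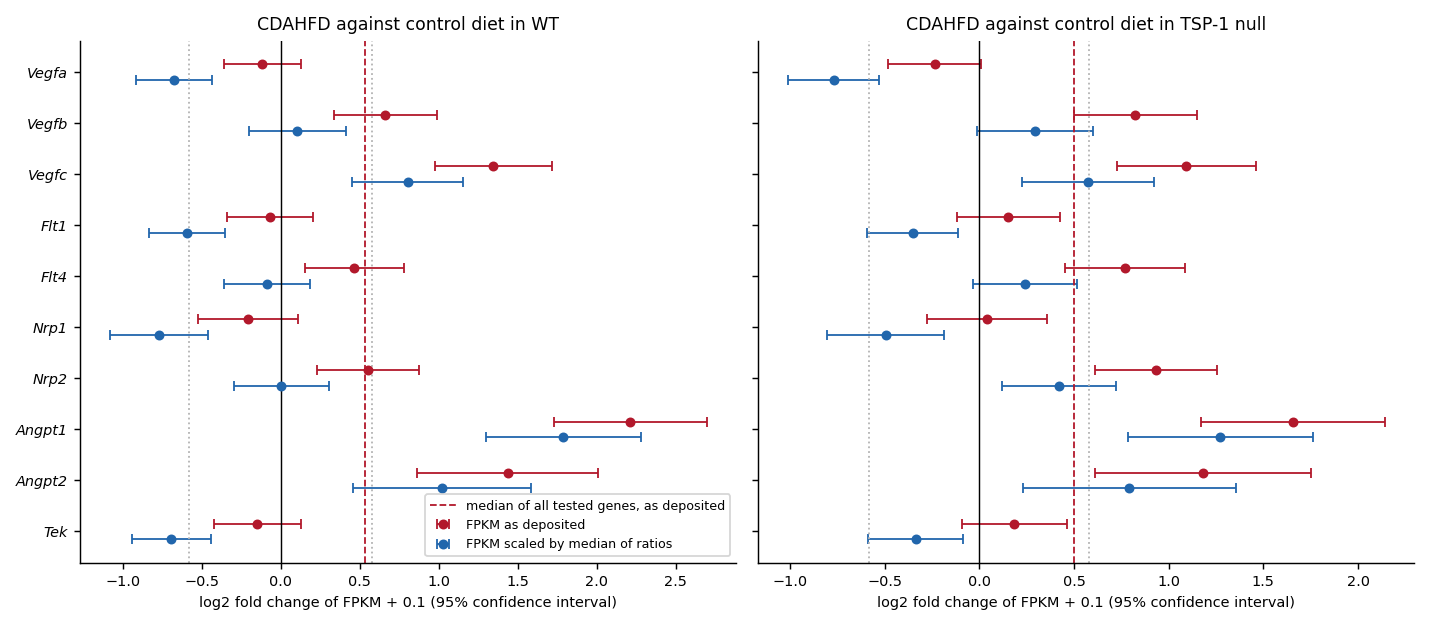
Log2 fold change of FPKM + 0.1 for CDAHFD against control diet (x axes, 95% confidence intervals) for each gene in WT and null mice, on the deposited scale and after median of ratios scaling. Dashed lines mark the median of all tested genes on the deposited scale (0.53 and 0.50) and dotted lines the fold threshold of 0.58; Vegfa, Flt1, Nrp1 and Tek lie near 0 on the first scale and below 0 on the second, and Angpt1 and Angpt2 lie above 0 on both.

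The receptors, the neuropilins and Angpt2 were next set against 10 pan-endothelial markers (Pecam1, Cdh5, Erg, Esam, Egfl7, Robo4, Eng, Sox7, Sox18 and Icam2), since their RNA is known mostly from endothelial cells or shared with them. These markers summed to 54.4 to 67.3 FPKM in NDWT and 58.0 to 103 in HFWT, and to 49.8 to 69.8 in NDKO and 71.9 to 114 in HFKO. Relative to the panel, the log2 difference of Tek between diets was -0.49 in WT, where the diets did not overlap, and -0.39 in null mice. It was -0.41 and -0.42 for Flt1, -0.55 and -0.54 for Nrp1, and 1.10 and 0.61 for Angpt2. No value passed the exact permutation test after adjustment over 24 tests, the smallest adjusted p being 0.0635, although 10 of the 24 unadjusted tests were below 0.05. Of the 6 genes Flt4 had the smallest differences between diets, at 1.30 to 1.42 times the panel level in NDWT and 1.31 to 1.77 times in HFWT (log2 difference 0.13; exact permutation, adjusted p = 0.177). With 9 sinusoidal endothelial markers in place of the panel, 8 of the 24 comparisons passed (adjusted p = 0.0476 each). These were lower values on CDAHFD for Tek in WT (-0.29) and null mice (-0.30) and for Flt1 in null mice (-0.34), higher values for Flt4 in WT (0.32) and null mice (0.28), Nrp2 in WT (0.41) and Angpt2 in WT (1.29), and a lower Nrp1 in the libraries labelled TSP-1 null on CDAHFD (-0.39). The diet differences of Angpt2 are a description, since it exceeded the filter through livers on CDAHFD alone. The counts of 10 and 8 comparisons and the adjustment over 24 tests include them.

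**Figure D4:**
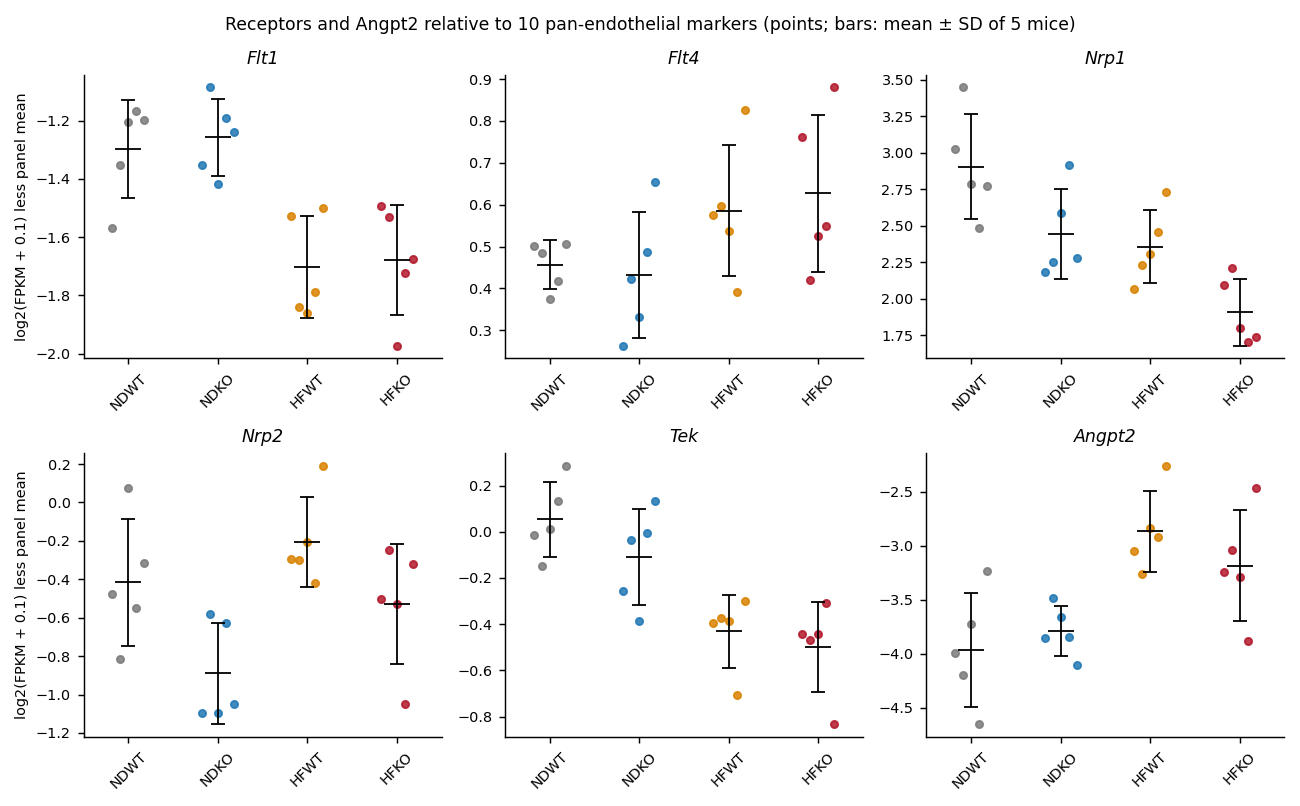
Log2(FPKM + 0.1) of Flt1, Flt4, Nrp1, Nrp2, Tek and Angpt2 less the mean of the same measure over 10 pan-endothelial markers (y axes) in the 4 groups (x axes); points are single livers and bars the mean ± SD of 5 mice. Flt1, Nrp1 and Tek lie lower and Angpt2 higher on CDAHFD, with no adjusted p below 0.0635.

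Genotype was compared within each diet by the labels, which the Thbs1 values on control diet go against. Libraries labelled TSP-1 null had lower Nrp1 and Nrp2 on control diet, by a log2FC of -0.53 ± 0.15 (FDR = 0.0251) and -0.55 ± 0.15 (FDR = 0.0246), and neither reached the fold threshold. Nrp1 ranged from 18.0 to 26.3 FPKM in NDKO and from 22.8 to 46.0 FPKM in NDWT, and Nrp2 from 1.73 to 2.43 and from 2.30 to 4.04 FPKM. Both pairs of groups overlapped. Leaving out any 1 of NDWT replicates 4 or 5 or NDKO replicates 3 or 4 took Nrp1 past the threshold (log2FC -0.58 to -0.63), and leaving out NDWT replicate 2 or NDKO replicate 2 did so for Nrp2 (-0.63 and -0.62). Other leave-outs weakened both, with the log2FC as small as -0.38 for Nrp1 and -0.43 for Nrp2. The highest FDR over all alternatives was 0.121 for Nrp1 and 0.0756 for Nrp2, neither below 0.05. On CDAHFD the 5 HFKO livers were below the 5 HFWT livers for Nrp1, at 19.8 to 22.9 against 24.9 to 28.3 FPKM, yet the log2FC of -0.28 ± 0.15 did not pass the test (FDR = 0.34). Nrp1 was the only gene of the 10 without overlap between genotypes, and on CDAHFD only, where 4.98% of all tested genes did not overlap, against 9.03% on control diet.

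With limma, 0 of the 10 genes were called between genotypes on control diet (2 with an unadjusted p below 0.05, and 0 called by voom on recovered fragments), on CDAHFD (0 and 0) or in the interaction of diet and genotype (0 and 0). The background was 4.77% of tested genes on control diet, 0.496% on CDAHFD and 0.647% for the interaction. The interaction estimates were -0.56 ± 0.33 for Angpt1 (FDR = 0.449), 0.38 ± 0.22 for Nrp2 (FDR = 0.429) and 0.33 ± 0.19 for Tek (FDR = 0.423), the genes farthest from 0 by their error. Angpt1 was 0.969 ± 0.252 FPKM in HFWT and 0.676 ± 0.135 in HFKO (SD, n = 5), a log2FC of -0.45 with the label that did not pass the test (FDR = 0.328). Calls of the diet change for Flt4 and Nrp2 in null mice and not in WT are therefore not shown to differ between genotypes. No ratio of 2 genes differed between genotypes on either diet after adjustment, the smallest adjusted p by exact permutation being 0.0952. The Vegfc to Flt4 ratio on CDAHFD passed in 1 of 13 alternatives, without HFKO replicate 2, as given above.

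**Figure D5:**
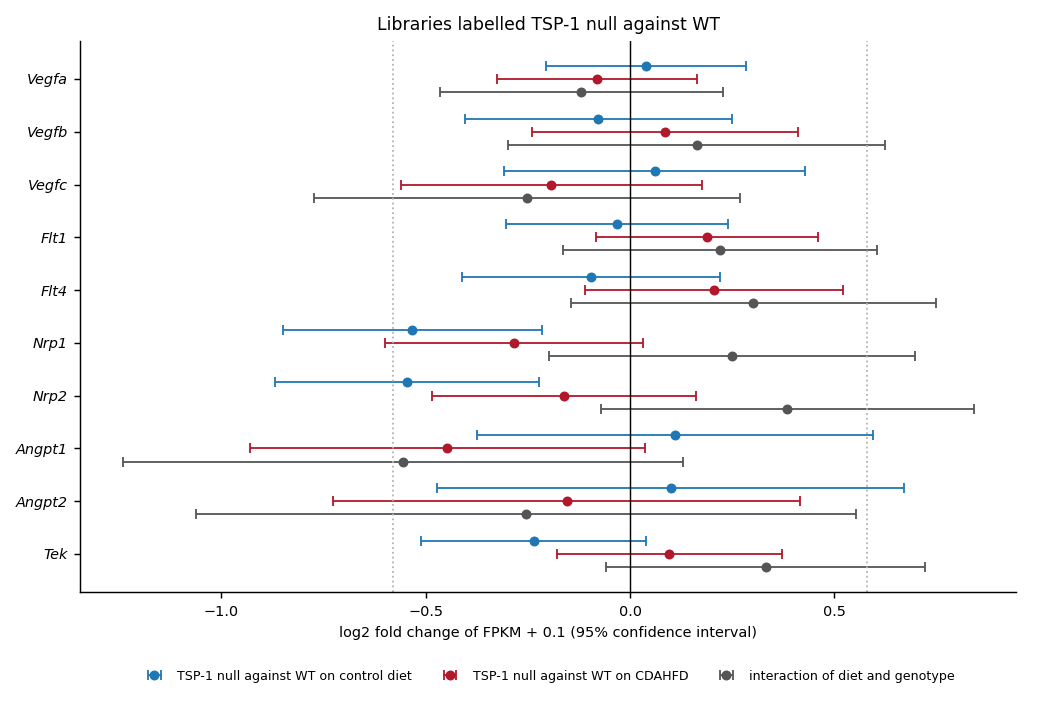
Log2 fold change of FPKM + 0.1 (x axis, 95% confidence intervals) for TSP-1 null against WT livers, as labelled, by diet, and the interaction of diet and genotype, for each gene. Dotted lines mark the fold threshold of 0.58; Nrp1 and Nrp2 on control diet are the estimates whose intervals exclude 0.

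The order of levels per length was Vegfa, Nrp1, Vegfb and Flt4 at the head in all 4 groups and both angiopoietins at the end. Vegfa (39.1 ± 5.93 FPKM) and Nrp1 (31.1 ± 9.77) overlapped in NDWT and in HFWT (36.1 ± 5.19 and 25.9 ± 1.41), but not in NDKO or HFKO. The mean of Vegfc was below that of Tek on control diet and above it on CDAHFD, where the livers of the 2 genes overlapped in both genotypes (5.37 ± 1.10 against 3.74 ± 0.83 FPKM in HFWT and 4.68 ± 0.912 against 3.96 ± 0.621 in HFKO). Angpt1 and Angpt2 overlapped on control diet, and in HFWT Angpt1 was above Angpt2 without overlap (0.969 ± 0.252 against 0.600 ± 0.0691 FPKM).

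The genes whose profile over the 20 livers lay nearest to those of 5 of the genes were found by the root mean square difference of centred log2(FPKM + 0.1) values, as a description. Vegfa was nearest to Asgr2, Tst and Proc (0.123, 0.127 and 0.128 log2 units), all known as genes of hepatocytes. Flt1 was nearest to Stab2, the scavenger receptor of sinusoidal endothelium, followed by Maged1 and Sec16a (0.13, 0.131 and 0.131). Tek was nearest to Ppap2b, Mrpl32 and Cd300lg (0.12, 0.143 and 0.152). Distances were larger for the low angiopoietins, with Dnm3os, Mamld1 and Tctex1d2 nearest to Angpt1 (0.258, 0.261 and 0.268) and Tctn1, Rab20 and Kif7 nearest to Angpt2 (0.256, 0.265 and 0.276).

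Kdr, which encodes the main signalling receptor of VEGF-A, averaged 10.7 FPKM in NDWT and 9.20 in HFWT, and 11.1 in NDKO and 11.4 in HFKO, with a log2FC for diet of -0.24 (FDR = 0.0793) and 0.03 (FDR = 0.811), while on the median of ratios scale it was -0.79, past the thresholds as lower, and -0.50, with the sign turned in null mice. Vegfd, the other VEGFR3 ligand (listed as Figf), rose from 0.377 to 0.996 FPKM in WT (log2FC 1.27, FDR = 0.0001) and from 0.313 to 0.755 FPKM in null mice (1.10, FDR = 0.00048), so that both VEGFR3 ligands were higher on CDAHFD. Tie1, the orphan partner of TIE2, was 0.25 in WT (FDR = 0.17) and rose by 0.62 in null mice (FDR = 0.0026), a call lost on the median of ratios scale. The list of 4 tested of 6 other VEGF and angiopoietin genes had 1 gene called higher in WT and 2 in null mice, against 1 higher and 2 lower in WT and 1 higher in null mice on the median of ratios scale (medians on the deposited scale 0.03 and 0.33, against 0.53 and 0.50 over all genes). Pgf was 0 FPKM in all NDWT livers and at most 0.160 FPKM elsewhere, and Angpt4 at most 0.195 FPKM.

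Of semaphorins and plexins, which share the neuropilins with VEGFs, 9 genes were tested, but 4 of them (Sema3b, Sema3c, Plxna3 and Plxna4) exceeded 0.5 FPKM on CDAHFD alone. Of the other 5, 4 rose in WT and 5 in null mice (medians 1.13 and 1.33), and 2 and 4 did on the median of ratios scale. Here and in the lists that follow, 44.1% and 41.9% of all tested genes were called higher on the deposited scale. The plexin receptor gene Plxna1 rose by 2.17 and 2.05. Sema3b, a class 3 semaphorin, averaged 0.336 FPKM in NDWT and 5.19 in HFWT, and 0.278 in NDKO and 3.28 in HFKO. Plxna2 was lower in the libraries labelled TSP-1 null on control diet (log2FC -0.67, FDR = 0.0088) and differed in its diet change between genotypes (interaction 1.24, FDR = 0.015). Sema3a, Sema3e and Sema3g were at most 0.197 FPKM in any liver. Among 3 genes of VEGF-C processing and lymphatic endothelium, without Pdpn, which exceeded the filter on CDAHFD alone, 2 rose in each genotype (medians 0.96 and 0.92), against 1 higher in WT and 1 lower in null mice on the median of ratios scale. Ccbe1, needed to activate VEGF-C, rose by 0.96 and 0.92 on the deposited scale and the chemokine gene Ccl21a by 1.74 and 1.56. On the median of ratios scale neither was called higher in null mice, and the medians of the 3 genes were 0.48 and 0.46. Adamts3, the protease that cleaves VEGF-C, was at most 0.222 FPKM.

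The oxygen sensing genes that act upstream of Vegfa came next. Of 8, 0 were called in WT and 1 in null mice (Vhl, log2FC 0.80), with medians of 0.32 and 0.30, while limma gave 6 of them an FDR below 0.05 in each genotype. On the median of ratios scale 2 were called lower in WT (Epas1 and Egln3) and 0 in null mice, and the medians were -0.23 in each. Hif1a was 5.85 FPKM in NDWT and 6.60 in HFWT, and Epas1 39.0 and 32.2. Egln3, an oxygen sensing hydroxylase and itself a hypoxia target, was lower in the libraries labelled TSP-1 null on control diet (8.51 against 5.57 FPKM, log2FC -0.59, FDR = 0.0068), a call lost on the median of ratios scale. Of 8 tested hypoxia target genes other than Vegfa, 5 rose and 1 fell in WT, and 6 rose and 1 fell in null mice (medians 1.27 and 1.07), against 5 and 3 higher with 1 lower in each on the median of ratios scale. Pfkfb3, a driver of glycolysis, rose by 1.70 and 1.94, the glucose transporter gene Slc2a1 by 1.15 and 0.94, and Adm, the adrenomedullin gene, by 1.40 and 1.23, while the mitophagy gene Bnip3 fell by 0.73 and 0.97 on the log2 scale. Ddit4 was higher (log2FC 1.07, FDR = 0.032) and P4ha1 lower (-0.73, FDR = 0.015) in the libraries labelled TSP-1 null on control diet.

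Downstream and neighbouring programmes were read in the same fit. Of 8 tip cell and Notch genes, without Hey1, which exceeded the filter on CDAHFD alone, 4 rose in WT and 5 in null mice (medians 1.11 and 1.29), and 4 in each on the median of ratios scale. Cxcr4 rose by 3.59 and 3.45, the netrin receptor gene Unc5b by 2.49 and 2.84, and Hes1 by 1.43 and 1.83, whereas the endothelial Notch ligand gene Dll4 was -0.06 and 0.11 and Apln and Aplnr were at most 0.134 FPKM. Jag1 rose with diet (1.42 and 1.71) and was lower in the libraries labelled TSP-1 null on control diet (-0.91, FDR = 0.003). Of 7 signal transduction genes of VEGF receptors and TIE2, without Sh2d2a and Grb10, which exceeded the filter on CDAHFD alone, 4 rose in each genotype (medians 0.75 and 0.68), among them Dok2 (1.92 and 1.79) and Rcan1 (0.96 and 0.91). On the median of ratios scale 1 was higher in each genotype, with 1 lower in WT (Foxo1) and 2 lower in null mice (Foxo1 and Shb). Shb, an adaptor of VEGFR2, was the gene of this list with a genotype difference: it was 23.6 FPKM in NDKO against 12.4 in NDWT (log2FC 0.93, FDR = 0.00027) and 16.6 against 15.6 on CDAHFD, with an interaction of -0.84 (FDR = 0.04). Of 7 angiogenesis inhibitor genes, Thbs1 included, 5 rose and 1 fell in each genotype (medians 1.43 and 1.35), and 4 rose and 2 fell on the median of ratios scale. Thbs2, a close relative of Thbs1, rose by 2.93 and 2.45, Timp3 by 1.52 and 1.48 and the vasohibin gene Vash1 by 1.43 and 1.35, while Serpinf1 fell by 0.74 and 0.71.

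Markers of the cells that could carry these genes moved with the diet, and their part in the values above was not tested. Of the pan-endothelial panel, 2 of 10 rose in WT and 4 of 10 in null mice (medians 0.37 and 0.53), against 0 higher and 1 lower in WT and 1 higher in null mice on the median of ratios scale, and Icam2 was lower in the libraries labelled TSP-1 null on control diet (-0.63, FDR = 0.029), a call lost on the median of ratios scale. Of sinusoidal markers 2 of 9 and 3 of 9 rose, led by Lyve1 (1.10 and 1.45) and Stab1 (0.91 and 1.02), while Stab2 was -0.01 and 0.19, and the summed level ranged from 89.2 to 96.8 FPKM in NDWT and from 85.2 to 119 in HFWT, and from 67.9 to 89.2 in NDKO and from 87.6 to 131 in HFKO. The medians of the sinusoidal list were -0.01 and 0.24. Dnase1l3 (14.2 to 10.2 FPKM), Gpr182 (8.44 to 7.16), Oit3 (12.5 to 11.4) and F8 (2.92 to 2.51) averaged lower in HFWT than in NDWT. The same genes averaged higher in HFKO than in NDKO. On the median of ratios scale 4 sinusoidal markers passed as lower in WT and 1 as higher in null mice. Capillary and large vessel markers, without Selp, which exceeded the filter on CDAHFD alone, rose in 3 of 3 in each genotype, and in 1 of 3 on the median of ratios scale, with Cd34 at 0.518 FPKM in NDWT and 6.44 in HFWT (log2FC 3.38) and at 3.40 in null mice, and the list summed to 23.7 to 43.5 FPKM in NDWT, 45.6 to 97.1 in HFWT, 32.1 to 45.2 in NDKO and 71.0 to 95.9 in HFKO. Emcn and Sele, of the same list, did not pass the filter. Stellate cell markers, of a cell known to make Angpt1 and VEGFs, rose in 10 of 10 in WT and 9 of 10 in null mice (medians 1.63 and 1.40), in 7 and 6 on the median of ratios scale, and summed to 78.9 to 99.5 FPKM in NDWT, 233 to 440 in HFWT, 103 to 109 in NDKO and 279 to 325 in HFKO. Acta2 of this list was lower in the libraries labelled TSP-1 null on control diet (-1.13, FDR = 0.015).

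Hepatocyte markers went the other way: 2 of 6 fell in WT and 3 of 6 in null mice (medians -0.30 and -0.65), and all 6 and 4 did on the median of ratios scale, with sums of 33848 to 40924 FPKM in NDWT, 25363 to 37095 in HFWT, 37830.4 to 45106 in NDKO and 34182 to 44867 in HFKO. Under quantile normalization 0 hepatocyte markers were called lower in WT and 1 in null mice, and the mean of Alb was 27881 FPKM in NDKO and 29725 in HFKO. Of the hepatocyte markers, Cps1 (1.10, FDR = 0.00095) and Pck1 (0.82, FDR = 0.0083) were higher in the libraries labelled TSP-1 null on control diet. Macrophage markers rose in 5 and fell in 2 of 9 in each genotype. On the median of ratios scale 5 were higher in each genotype, with 3 lower in WT and 2 lower in null mice. The log2FC was 6.15 and 4.87 for Trem2 and -3.52 and -3.13 for Timd4. The summed level of the macrophage markers was 117 to 162 FPKM in NDWT, 407 to 576 in HFWT, 106 to 182 in NDKO and 301 to 604 in HFKO. Trem2 also differed by label on control diet (0.79, FDR = 0.0081) and in the interaction (-1.28, FDR = 0.026). Without Krt7, which exceeded the filter on CDAHFD alone, 5 of 5 cholangiocyte markers rose in each genotype (medians 3.88 and 3.09), and 4 of 5 on the median of ratios scale, and the whole list went from a sum of 20.6 to 24.4 FPKM in NDWT to 302 to 500.4 in HFWT, and from 18.3 to 22.3 in NDKO to 192 to 374 in HFKO. Platelet markers, of a source of Angpt1, Vegfa and thrombospondin-1, rose in 2 and 1 of 3 tested, against 1 higher in WT and 1 higher and 1 lower in null mice on the median of ratios scale, with a log2FC of 3.33 and 2.84 for Pf4 and sums of 1.01 to 3.39 FPKM over the control livers and 7.25 to 10.4 over those on CDAHFD. Both tested neutrophil markers (S100a8 and S100a9) rose on both scales, with sums over the whole list of 0.716 to 4.11 FPKM in the control livers and 10.5 to 30.7 in those on CDAHFD. Elane, which did not pass the filter, averaged 0.348 FPKM in NDWT and 0.379 in HFWT, and 0.158 in NDKO and 0.164 in HFKO. Ly6g was 0 FPKM in NDWT and HFWT and Mpo was 0 FPKM in all control livers.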

How the data were processed

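Poly(A) RNA of 20 mouse livers, 5 per group by the sample labels, was sequenced on an Illumina HiSeq instrument from paired ends, and the authors processed the reads with QuickRNASeq. The submitters' processing notes name STAR 2.5.2, featureCounts and Subread 1.5.1 and the human build GRCh38, but the coordinates of the deposited table match mouse GRCm38: 99.8% of the 37607 identifiers shared with GENCODE M21 overlapped the same gene there. The liver lobe differs between the series text (right medial) and the study's methods (right lateral). The deposited values are FPKM, without normalization between libraries, so each is a share of assigned fragments. Whole fragments were recovered from FPKM, gene length and library total (within 0.15 of a whole number for 100.0% of checked values in the lowest library). Libraries held 15641545 to 23276322 fragments, and 3 fragments on a gene of 1 kb equal 0.129 to 0.192 FPKM, which covers counting error only. Within groups, 40 pairs of libraries differed by more than sampling noise (chi-square per degree of freedom at least 13.0).

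A gene was tested if 5 libraries or more exceeded 0.5 FPKM, with limma 3.58.1 in R 4.3.3 (trend, 1 mean per group, all 20 libraries) on log2(FPKM + 0.1). Calls needed a two-sided Benjamini-Hochberg FDR under 0.05 over all 14524 genes and an absolute log2FC above 0.58. Fold changes are on the log2(FPKM + 0.1) scale, and ratios are of FPKM + 0.1. Ratios and values relative to the endothelial panel were tested by exact permutation, two-sided, adjusted by Benjamini-Hochberg over 24 tests each. Alternatives were pseudocounts of 0.01 and 1, other filters, median of ratios and quantile scaling, no fold threshold, other variance models, only the groups compared, the replicate number as a block, each library left out and, added after the values were seen, voom on recovered fragments. Ratios and figures used Python 3.11.15 with numpy 2.4.6, matplotlib 3.10.9 and pandas 2.3.3. Promoters came from RefSeq. The 10 genes and the 17 lists with 135 genes, all written from general knowledge, were chosen with earlier results of these data known, and lists are described by counts and medians with no set test. The text names all 10 genes, Thbs1, up to 4 called genes of each list with the lowest FDR in a diet comparison, every list gene called by genotype or in the interaction, markers at or near 0 and the 3 nearest profiles. List genes that were not called and are given with values were added after their values were seen. List genes that exceeded 0.5 FPKM in no control library were left out of the diet counts, and of the fold changes by diet, after the values were seen. Replicate numbers did not pair the mice.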

Additional observations from a re-analysis of the deposited data

Results flagged for a closer look

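In groups of 5 livers, 6 of 88 sets of values had a library that stood apart from the others by Dixon's criterion (a gap above 0.71 of the range), and chance flags about 1 in 20 such sets. Vegfa was low in HFWT replicate 3 (27.2 FPKM), Angpt1 was high in NDWT replicate 3 (0.264 FPKM, from 20 fragments) and Angpt2 was high in HFKO replicate 5 (1.15 FPKM, from 81 fragments). The log2 Vegfa to Vegfb ratio was high in HFKO replicate 2 (1.71) and the log2 Vegfc to Flt4 ratio low in NDKO replicate 1 (-1.50). Tek relative to the endothelial panel was low in HFWT replicate 4 (-0.71 log2 units). The causes were not tested.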

How the results depend on the processing

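Counts of the 10 genes here include both angiopoietins, which exceeded the filter through livers on CDAHFD alone, and are a description. Without these 2, median of ratios called 1 gene higher and 4 lower in WT, and 0 higher and 1 lower in null mice. Over all tested genes it called 22.7% higher and 15.4% lower in WT, and 22.2% and 13.6% in null mice. On the deposited scale 48.8% of all tested genes were called in WT and 45.9% in null mice. Scaling between libraries changed most calls: with median of ratios the genes of the 10 that were called numbered 7 in WT (4 of them lower) and 3 in null mice, and with quantile normalization 1 in null mice, while Angpt2 turned to -0.038 in WT and -0.15 in null mice and Flt1 to -0.68 in null mice. The filter of FPKM above 1 left 2 of the 10 called in WT, since it removed the angiopoietins. With a pseudocount of 1 the genes called between genotypes on control diet numbered 393, and Angpt2 (0.46 in WT, 0.39 in null mice) and Angpt1 (0.54 in null mice) fell below the fold threshold. Without a filter, 127 genes were called between genotypes on CDAHFD and 54 in the interaction. Without a fold threshold, 10406 genes were called for diet in null mice, 1899 between genotypes on control diet, with 2 of the 10 (Nrp1 and Nrp2), and 163 on CDAHFD, where fitting only the groups compared called 40 and voom 132. With 1 library left out, the genes of the 10 that were called ranged from 4 to 5 for diet in WT, 6 to 6 in null mice and 0 to 1 between genotypes on control diet, ratios passing from 4 to 8, and genes called from 6781 to 7204, 6386 to 6777, 539 to 774, 38 to 84 (lowest without HFKO replicate 4) and, for the interaction, 36 (without NDKO replicate 4) to 184 (without NDKO replicate 2). Same-numbered livers deviated with correlations from -0.133 to 0.0807 and 4 of 20 correlated best with their own number. With the replicate block, 4 and 6 of the 10 were called for diet as before and 0 elsewhere, genes called were 7097, 6668, 677, 61 and 86, and no ratio passed (0), since the smallest p of the exact sign-flip test is 0.0625. With sinusoidal markers in place of the endothelial panel 8 comparisons passed, Angpt2 in WT included. The causes were not tested. The angiopoietins, with 4 to 20 fragments in control libraries, are limited by depth.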
